A study of Mus musculus with 12 samples.

Results

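The genes described here are 35 transcriptional targets of p53, a list of genes that p53 is known to switch on in stressed cells. The rule for membership was knowledge of the pathway and no measured value, but the list was chosen with earlier results of these data known. All 35 were found in the deposited count files and all 35 had more than 20 reads in total over the 12 libraries, so they are 35 of the 22592 genes tested out of 55421 listed. Hippocampus was taken from 12 mice in 4 groups of 3. WT-Veh and WT-Nut3 were wild-type mice given vehicle or Nutlin-3, and KO-Veh and KO-Nut3 were *Fmr1* knockout mice given vehicle or Nutlin-3. All mice had a C57B/L6 background. Injections into the peritoneum were given at 2 months of age, and tissue was taken at 6 months. The comparison addresses whether a brief block of MDM2 left a lasting difference in the genes that p53 controls. Libraries are named by group and animal number, from RH1 to RH16, and values are given in the order RH2, RH5, RH15 for WT-Veh, RH1, RH9, RH14 for WT-Nut3, RH7, RH10, RH16 for KO-Veh and RH6, RH8, RH13 for KO-Nut3. Total reads on genes ranged from 17150820 to 20040482 per library. Each library is whole hippocampus, in which fewer cells of a type and less RNA per cell cannot be told apart.

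The protein p53 is a transcription factor that is continuously made and destroyed. Its main brake is MDM2, a ubiquitin ligase that covers the transactivation domain of p53 and marks the protein for the proteasome, while MDM4 covers the same domain. Nutlin-3 occupies the p53-binding pocket of MDM2 and so releases p53, which then drives genes of cell cycle arrest, apoptosis, DNA repair and metabolism. *Mdm2* is itself a p53 target, which closes the loop. *Fmr1* encodes FMRP, an RNA-binding protein that restrains the translation of many neuronal mRNAs.

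p53 binds DNA as a tetramer at a pair of adjoining p53 half-sites, each of 10 bases with the core CNNG. Windows from 250 bases before to 50 bases after the transcription start were read from RefSeq (GRCm38.p6), which gave a window for 27 of the 35 genes. *Perp*, *Trp53inp1*, *Rrm2b*, *Xpc*, *Pmaip1*, *Tnfrsf10b*, *Zmat3* and *Ddb2* had no window and were not searched. An exact half-site was present in the windows of 11 of these 27 genes (40.7%) and of 9.55% of all 27025 genes. The half-site reads as the same motif on both strands. A pair of abutting half-sites, with both cores kept and at most 2 mismatches elsewhere, was present in 5 of the 27 genes (18.5%), against 0.392% of all genes. The 5 pairs are shown because this motif is the one through which p53 acts on a gene. Capitals mark the 20 bases of the pair, with 5 flanking bases on each side, on the strand of the gene.
Cdkn1a: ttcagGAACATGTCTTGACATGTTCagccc
Ccng1: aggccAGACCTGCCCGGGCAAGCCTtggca
Rps27l: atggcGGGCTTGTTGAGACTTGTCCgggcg
Gtse1: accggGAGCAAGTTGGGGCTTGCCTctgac
Ckap2: tctgaAGACATGTCCTGACTTGTCAagcct
The *Cdkn1a* pair lies at chr17:29090928-29090947 on the plus strand and starts 51 bases before the RefSeq start, outside the gene as GENCODE M21 draws it. The *Ccng1* pair lies at chr11:40755462-40755481 on the minus strand, 195 bases before the start and also outside the gene. The *Rps27l* pair at chr9:66946296-66946315 (plus strand) is in an intron of the longer GENCODE gene, and the *Gtse1* pair at chr15:85859945-85859964 (plus strand) is in a GENCODE exon. The *Ckap2* pair at chr8:22186003-22186022 (minus strand) starts 203 bases before the RefSeq start, outside the gene. The *Ckap2* pair has 2 mismatches and the other four pairs have 1 each. A match describes the letters and says nothing of binding in these mice.

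*Fmr1* was read first as a check of the labels. It was at 79.5, 75.3 and 77.7 CPM in WT-Veh, at 75.2, 73.97 and 78.3 in WT-Nut3, at 32.7, 32.5 and 37.3 in KO-Veh and at 30.6, 28.5 and 35.7 in KO-Nut3, where CPM is the normalised read count scaled to library size. Every knockout library was below every wild-type library, and in all KO against all WT the log2 fold change was -1.22 ± 0.06 (SE; edgeR, adjusted P = 1.71e-08). The transcript was lower in the knockout but was still counted. Markers of CA pyramidal neurons and dentate granule neurons, 12 of each, were all counted in every library. The CA list summed to 869 to 1400 CPM, with its lowest value in KO-Nut3 RH6, and the dentate list to 593 to 839.7 CPM. Of the CA list, *Wfs1* was lower in KO-Veh than in WT-Veh, with a log2 fold change of -0.44 ± 0.06 (adjusted P = 0.0478).

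The 35 genes differed widely from each other in level, and most of them differed by less than 2-fold between libraries. Per kilobase of exon, the highest mean level was 36.6 CPM per kb for *Ddit4*, an inhibitor of mTORC1 signaling, followed by 20.5 for the cyclin G1 gene *Ccng1* and 16.7 for the sestrin gene *Sesn1*. *Cdkn1a*, which encodes the cyclin-dependent kinase inhibitor p21 and is the usual reporter of p53 activity, was at 1.68 CPM per kb, and the lowest was *Eda2r* at 0.122. In reads, 23 genes had more than 100 in each library and 10 had fewer than 100 in each. The highest library exceeded the lowest by less than 1.5-fold for 16 genes and by less than 2-fold for 22, while 7 genes spread over more than 3-fold. Those 7 were *Gdf15*, *Gtse1*, *Tnfrsf10b*, *Perp*, *Eda2r*, *Ckap2* and *Fas*. *Perp* was at a mean of 4.85 CPM and the other six were below 2 CPM, with few reads. *Gdf15*, a secreted stress cytokine gene, had 1 to 15 reads per library. The median spread within groups over all genes was an SD of 0.2304 log2 CPM, and among the 35 genes it ran from 0.0488 for *Ei24* to 0.964 for *Gdf15*.

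**Figure D1:**
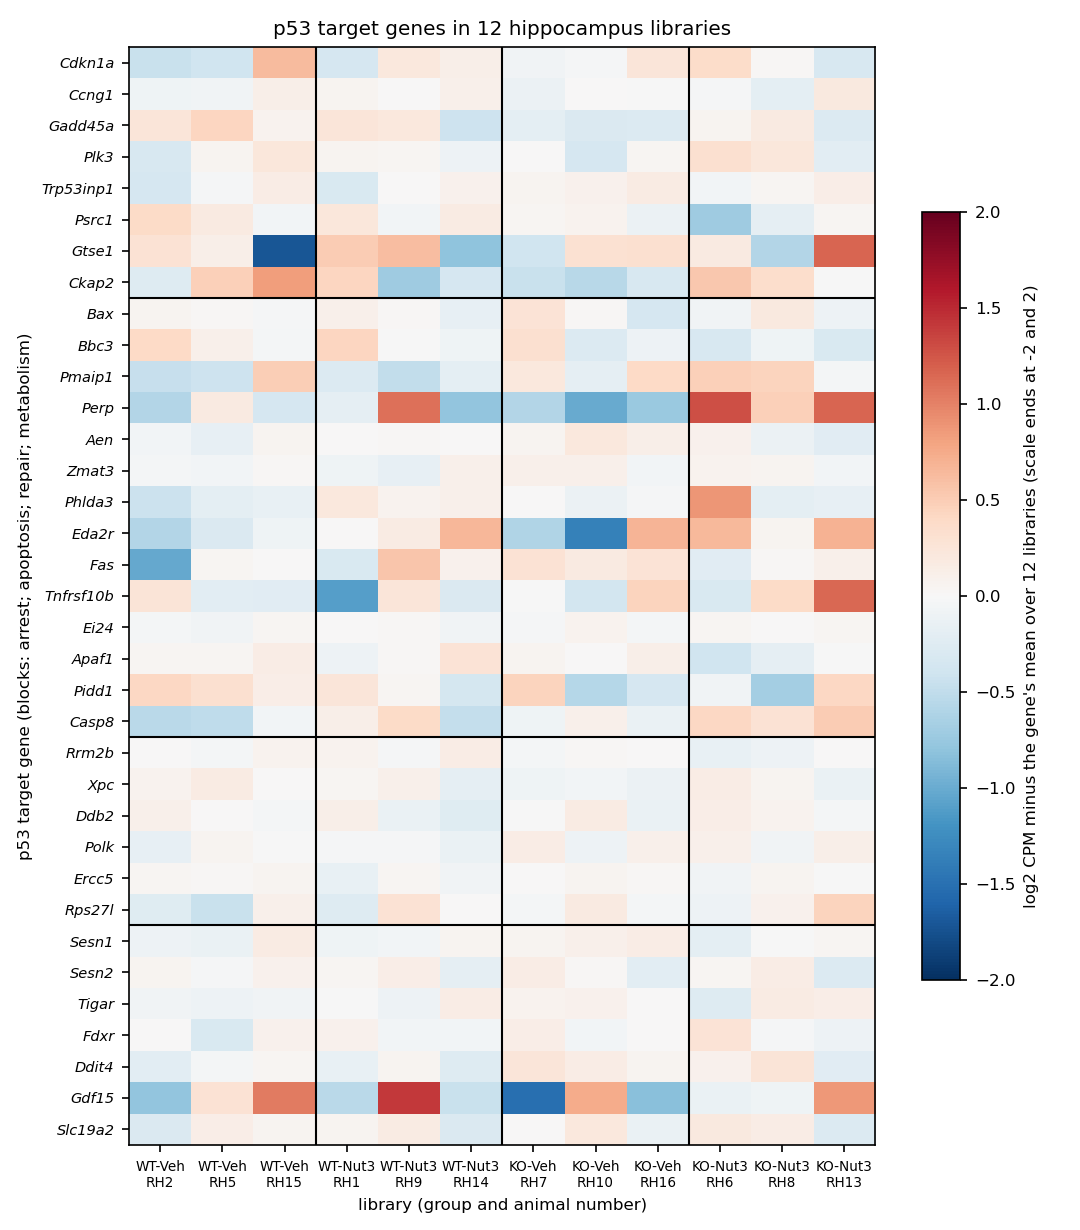
Heat map of the 35 p53 target genes (rows, by role) in the 12 libraries (columns, by group), as log2 CPM minus the mean of the gene over all libraries. Most rows are pale throughout, *Perp* is high in WT-Nut3 RH9 and in all 3 KO-Nut3 libraries, and the most strongly coloured rows are genes with few reads, such as *Gdf15* and *Gtse1*.

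In *Fmr1* knockout mice, 1 of the 35 genes passed the adjusted threshold for Nutlin-3 against vehicle (edgeR, adjusted P under 0.05), where 0.199% of all genes passed. That gene was *Perp*, which rose. The call was lost in a joint fit of 12 libraries and with blocks of animal numbers (up to RH8, from RH9). With a score of choroid plexus markers added to that joint fit there was also no call, and the log2 fold change was 0.56. Of 6 fits with 1 library left out, 2 kept the call. Of the 35 genes in KO-Nut3 against KO-Veh, 19 were higher and 16 lower, where 50.8% of all genes were higher, and the median log2 fold change was 0.02 beside 0.0034 over all genes. *Perp* and *Apaf1* were the 2 genes with an unadjusted P under 0.05, beside 7.6% of all genes. For 6 genes the groups did not overlap, beside 13.3% of all genes. These were *Ckap2*, *Perp* and *Casp8*, higher with Nutlin-3, and *Fas*, *Apaf1* and *Sesn1*, lower. The 95% interval of the log2 fold change lay within -0.5 to 0.5 for 20 of the 35 genes and within -1 to 1 for 29.

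In wild-type mice no target gene passed. In WT-Nut3 against WT-Veh 0 of 35 did with edgeR and 0 with DESeq2, beside 0% of all genes with edgeR. *Phlda3* was the 1 gene with an unadjusted P under 0.05, beside 3.17% of all genes. Of the 35, 16 were higher and 19 lower (50.1% of all genes higher), with a median log2 fold change of -0.01 beside 0.00017 over all genes. *Phlda3* and *Eda2r* were the 2 genes whose groups did not overlap, both higher, beside 7.52% of all genes. The interval lay within -0.5 to 0.5 for 21 genes.

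With both genotypes together, all Nutlin-3 against all vehicle, 0 of 35 genes passed with edgeR (0% of all genes) and 0 with DESeq2. Here 18 genes were higher and 17 lower (49.9% of all genes higher). *Perp*, *Phlda3*, *Casp8* and *Eda2r* were the 4 with an unadjusted P under 0.05, all higher, beside 7.29% of all genes. The choroid plexus score, the mean log2 CPM of 20 markers of that tissue, was then added to the model. With it the *Perp* value turned from 1.14 to -0.0063 and that of *Casp8* went from 0.43 to 0.18. Over the alternatives that kept every library, this score among them, *Phlda3* ran from 0.27 to 0.35 and *Eda2r* from 0.48 to 0.69. Leaving out KO-Nut3 RH6, with no score in the model, took *Phlda3* from 0.35 to 0.15. The interval lay within -0.5 to 0.5 for 24 genes and within -1 to 1 for 31.

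**Figure D2:**
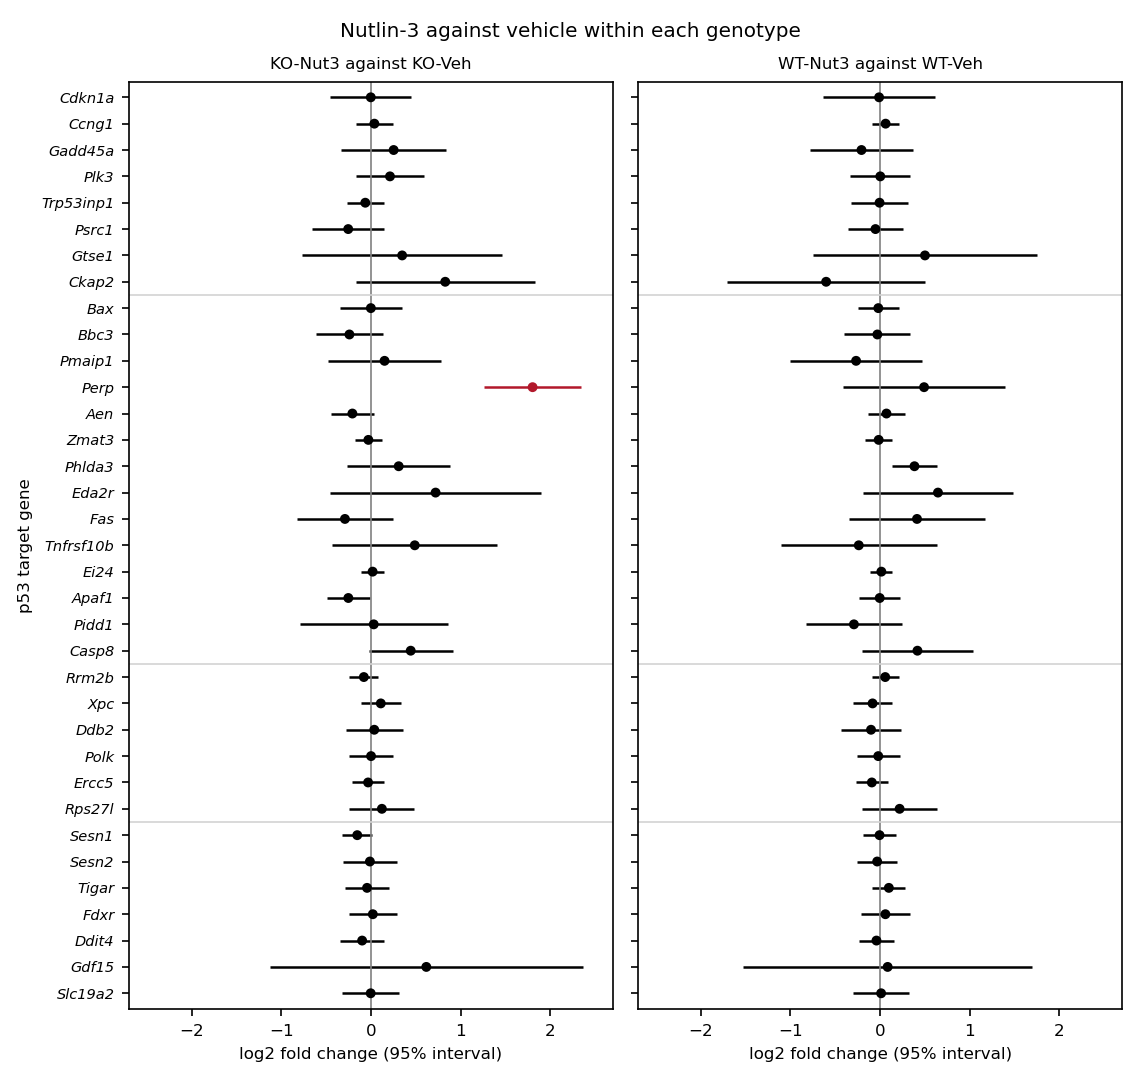
Log2 fold changes (points) with 95% intervals (lines) of the 35 p53 target genes for Nutlin-3 against vehicle in *Fmr1* KO mice and in WT mice, 3 libraries against 3 in each. Red marks an adjusted P under 0.05, reached by *Perp* in the knockout at 1.80, and intervals are narrow for abundant genes such as *Ei24* and wide for sparse ones such as *Gdf15*.

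None of the 8 genes of cell cycle arrest passed the adjusted threshold in any comparison, and in KO-Nut3 against KO-Veh 5 were higher and 3 lower. *Cdkn1a* was at 4.24, 4.41 and 9.06 CPM in WT-Veh, at 4.62, 6.71 and 6.28 in WT-Nut3, at 5.52, 5.69 and 6.89 in KO-Veh and at 7.54, 5.9001 and 4.67 in KO-Nut3. All 4 groups overlapped, and the highest library was a vehicle-treated wild type (RH15). The log2 fold change of *Cdkn1a* was -0.0019 ± 0.20 (95% interval -0.45 to 0.45) in KO-Nut3 against KO-Veh. It was -0.01 ± 0.28 (-0.64 to 0.62) in WT-Nut3 against WT-Veh. The wild-type value rests on WT-Veh RH15 (9.06), as both other WT-Veh libraries (4.24 and 4.41) were below every WT-Nut3 library. *Cdkn1a* overlaps a second gene model. As reads were counted on both strands, reads on any stretch shared by the pair cannot be assigned to either gene. The same holds for *Gadd45a*, *Plk3*, *Bax*, *Fas*, *Ei24*, *Apaf1*, *Casp8*, *Rrm2b*, *Ddb2*, *Polk*, *Sesn1*, *Sesn2* and *Tigar*.

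*Ccng1*, whose product recruits a phosphatase that restrains p53 signaling, had 1098 to 1519 reads per library. It was at 67.96, 68.8 and 78.2 CPM in WT-Veh, at 74.96, 72.1 and 76.8 in WT-Nut3, at 66.7, 72.1 and 71.7 in KO-Veh and at 71.1, 62.9 and 82.6 in KO-Nut3. KO-Nut3 held both the lowest and the highest library. The log2 fold change was 0.04 ± 0.09 (-0.17 to 0.25) in KO-Nut3 against KO-Veh and 0.05 ± 0.06 (-0.08 to 0.18) over all Nutlin-3 libraries.

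*Gadd45a*, whose product binds PCNA and stress kinases in growth arrest, was at 1.97, 2.26 and 1.75 CPM in WT-Veh, at 1.98, 1.94 and 1.23 in WT-Nut3, at 1.45, 1.35 and 1.37 in KO-Veh and at 1.72, 1.89 and 1.37 in KO-Nut3. The KO-Veh libraries were below the WT-Veh libraries, with a log2 fold change of -0.52 ± 0.25 (adjusted P = 0.713). *Psrc1*, a gene for a spindle microtubule regulator, was at 16.2, 14.1 and 12.0003 CPM in WT-Veh, at 14.7, 12.1 and 14.02 in WT-Nut3, at 12.9, 13.1 and 11.5 in KO-Veh and at 7.598, 11.1 and 12.9 in KO-Nut3. KO-Nut3 RH6 was the lowest library, and in all KO against all WT the log2 fold change was -0.27 ± 0.12 (adjusted P = 0.5797), or -0.18 without that library.

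*Ckap2*, another spindle gene, had 5 to 16 reads per library and was at 0.358, 0.6304 and 0.824 CPM in WT-Veh, at 0.609, 0.248 and 0.336 in WT-Nut3, at 0.3097, 0.282 and 0.342 in KO-Veh and at 0.666, 0.573 and 0.439 in KO-Nut3. Nutlin-3 libraries were lower on average in wild type and higher in the knockout. The interaction, which is the log2 change with Nutlin-3 in the knockout minus that in wild type, was 1.44 ± 0.65 (95% interval 0.05 to 2.83, adjusted P = 0.994). The remaining genes of arrest, the polo-like kinase gene *Plk3*, the p53 cofactor gene *Trp53inp1* and *Gtse1*, whose product carries p53 out of the nucleus, had no unadjusted P under 0.05 in any comparison.

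None of the 5 genes with a paired half-site passed in any comparison, and *Perp*, which did, was not searched for one. In KO-Nut3 against KO-Veh the log2 fold change of *Cdkn1a* was given above, and it was 0.12 ± 0.16 (-0.24 to 0.48) for *Rps27l*. It was 0.35 ± 0.50 (-0.76 to 1.46) for *Gtse1* and 0.83 ± 0.45 (-0.17 to 1.83) for *Ckap2*. Both of the latter were sparse and their intervals reach past 1.

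**Figure D3:**
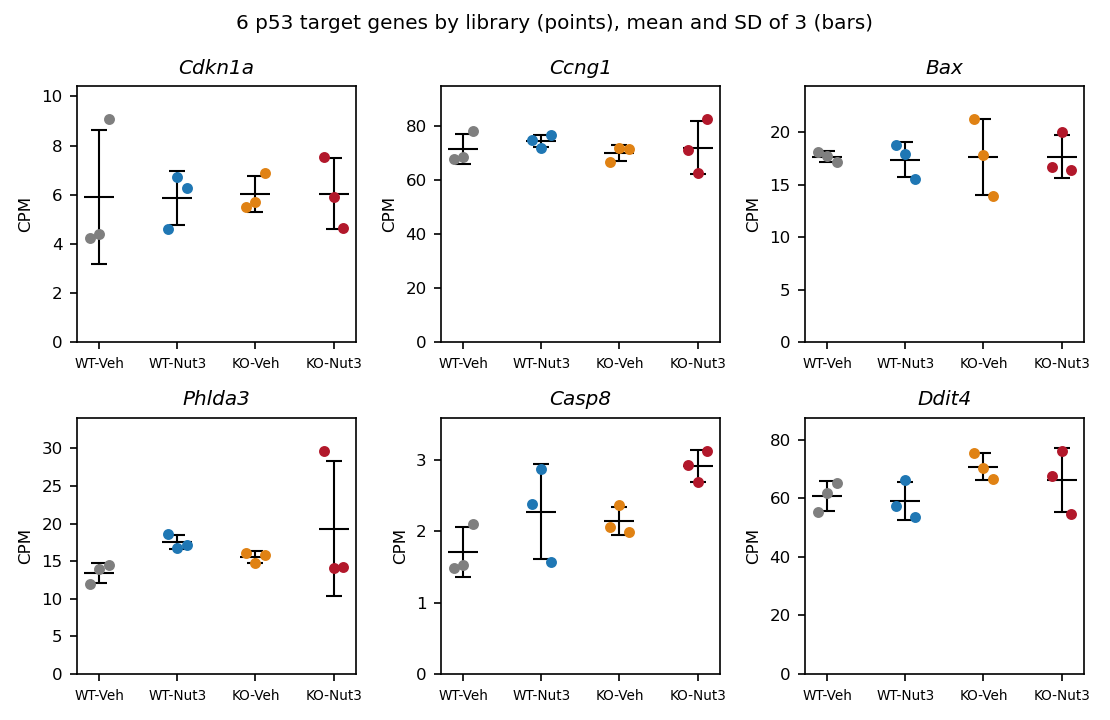
CPM of *Cdkn1a*, *Ccng1*, *Bax*, *Phlda3*, *Casp8* and *Ddit4* in each library (points, by group), with the mean and SD of 3 libraries (bars) and axes from 0. *Cdkn1a* and *Bax* overlap between all 4 groups, *Ccng1* has both its lowest and its highest library in KO-Nut3, *Phlda3* has 1 high library in KO-Nut3 (RH6), *Casp8* is highest in KO-Nut3, and *Ddit4* is higher in KO-Veh than in WT-Veh.

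The 14 genes of apoptosis and death receptors held the single call, that of *Perp*. It was lost with blocks of animal numbers and in the joint fit, both without and with the choroid plexus score added. Of the 14 genes, 8 were higher and 6 lower in KO-Nut3 against KO-Veh. *Bax*, whose product opens the outer mitochondrial membrane, was at 18.2, 17.8 and 17.2 CPM in WT-Veh, at 18.8, 17.9 and 15.5 in WT-Nut3, at 21.2, 17.8 and 13.9 in KO-Veh and at 16.7, 19.99 and 16.4 in KO-Nut3. All groups overlapped, with a log2 fold change of -0.0011 ± 0.15 (-0.35 to 0.34) in KO-Nut3 against KO-Veh. *Zmat3*, an RNA-binding splicing regulator gene and a strong p53 target in many tissues, was at 97.2, 95.97 and 102 CPM in WT-Veh, at 94.6, 89.7 and 107 in WT-Nut3, at 107, 108 and 96.7 in KO-Veh and at 105, 104 and 96.4 in KO-Nut3. The whole range over 12 libraries was 1.201-fold, and the log2 fold change was -0.03 ± 0.07 (-0.18 to 0.12) in KO-Nut3 against KO-Veh and -0.02 ± 0.07 (-0.17 to 0.14) in WT-Nut3 against WT-Veh.

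*Perp* encodes a membrane protein of desmosomes in epithelia, which p53 induces during apoptosis. The gene lies at chr10:18845020-18857073 (mm10, plus strand) and overlaps no other gene. It had 36 to 184 reads per library and was at 2.75, 4.68 and 3.24 CPM in WT-Veh, at 3.65, 8.94 and 2.36 in WT-Nut3, at 2.74, 2.03 and 2.45 in KO-Veh and at 10.2, 5.79 and 9.34 in KO-Nut3. All 3 KO-Nut3 libraries were above all vehicle libraries, and WT-Nut3 RH9, at 8.94 CPM, was as high as they were. In KO-Nut3 against KO-Veh the mean rose from 2.41 ± 0.355 to 8.44 ± 2.34 CPM (SD, n = 3). The log2 fold change was 1.80 ± 0.24 (95% interval 1.26 to 2.34), with an adjusted P of 0.0215 with edgeR and 5.09e-08 with DESeq2, which called 245 of 22566 genes. As given above, the edgeR call was lost in several alternative fits, and with the choroid plexus score added the value was 0.56.

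In WT-Nut3 against WT-Veh, where the groups overlapped, *Perp* gave 0.49 ± 0.41 (adjusted P = 0.998). Of the WT-Nut3 libraries only RH9 was above the WT-Veh range. The interaction was 1.32 ± 0.55 (adjusted P = 0.994). A difference between genotypes in the response of *Perp* was therefore not shown at the adjusted threshold in the main fit. With a minimum of 1 count the interaction of *Perp* passed it. Against WT-Veh, KO-Nut3 gave 1.24 ± 0.26 (adjusted P = 0.185) and KO-Veh gave -0.56 ± 0.24 (adjusted P = 0.673). The last of these was -0.32 without WT-Veh RH5, and with 1 library left out the interaction ran from 0.97 (without WT-Nut3 RH14) to 2.05 (without WT-Nut3 RH9). With the choroid plexus score added to the model, the interaction was 0.86 and the value in KO-Nut3 against WT-Veh turned to -0.051. These comparisons share libraries, so the low values of KO-Veh enter more than one of them.

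Markers of choroid plexus epithelium, the secretory tissue of the ventricle beside the hippocampus, moved in the same libraries as *Perp*. The mean log2 CPM of 20 markers was 4.8003 in KO-Nut3 RH6, 1.9999 in RH8, 5.06 in RH13 and 5.04 in WT-Nut3 RH9. The remaining 8 libraries had scores from -0.622 to 0.369. Summed, the markers reached 3760, 436, 5346 and 5016 CPM in the 4 libraries, against 69.3 to 99.3 CPM in the 8. The transthyretin gene *Ttr*, the most abundant marker, was at 3091, 314, 4520 and 4215 CPM in the 4, against 3.15 to 18.2 CPM. No marker was at 0 in the 4 libraries, while *Kcnj13*, *Steap1*, *Lmx1a* or *Cox8b* was at 0 in 6 of the 8.

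In KO-Nut3 against KO-Veh all 20 choroid plexus markers were higher and 6 passed the adjusted threshold, where 50.8% of all genes were higher and 0.199% passed. The 6 were *Ttr*, *Kcne2*, *Slc4a5*, *Tmem72*, *Ecrg4* and *Folr1*, with *Ttr* at a log2 fold change of 8.05 ± 0.99 (adjusted P = 0.0131). Fibroblast markers were higher for 11 of 12, with 1 past the threshold (*Igf2*, 2.75 ± 0.27, adjusted P = 0.00718). Ependymal markers were higher for 11 of 11, with none past it. Both lists stand against the same shares of all genes. The fibroblast markers had a mean log2 CPM of 3.46, 4.18 and 2.38 in KO-Nut3, 1.88 to 2.01 in KO-Veh and 3.67 in WT-Veh RH5. *Igf2* had 98, 102 and 78 reads in KO-Nut3, 77 in WT-Nut3 RH9, 62 in WT-Veh RH5 and 5 to 20 in the others. In KO-Nut3 against KO-Veh, the joint fit of 12 libraries without the choroid score had no *Perp* call (adjusted P = 0.298). With the score added to that fit the *Perp* value was 0.56, also not past the threshold. The lost call therefore cannot be credited to the score. Every KO-Nut3 library had a higher score than the KO-Veh libraries (-0.254, -0.482 and 0.271). Score and treatment cannot be told apart between these groups. *Perp* also left the threshold when blocks of animal numbers (up to RH8, from RH9) were added (adjusted P = 0.0603). Leaving out KO-Nut3 RH13 gave an adjusted P of 0.0532, and leaving out a KO-Veh library gave 0.134 (RH7), 0.261 (RH10) or 0.145 (RH16).

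**Figure D4:**
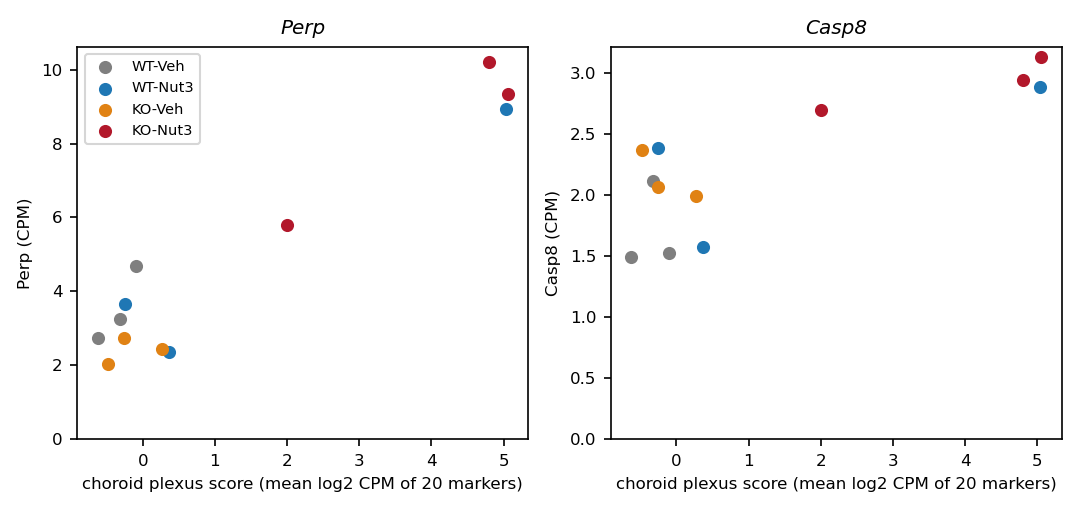
CPM of *Perp* (left) and *Casp8* (right) against the choroid plexus score, the mean log2 CPM of 20 markers, in each of the 12 libraries, coloured by group. The 3 KO-Nut3 libraries and WT-Nut3 RH9 have the highest scores and are the 4 highest libraries for both genes.

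*Casp8*, the gene of the initiator caspase of death receptors, was at 1.49, 1.52 and 2.11 CPM in WT-Veh, at 2.38, 2.88 and 1.57 in WT-Nut3, at 2.06, 2.37 and 1.99 in KO-Veh and at 2.94, 2.69 and 3.13 in KO-Nut3. KO-Nut3 lay above every vehicle library, and the 4 highest libraries were again those with choroid plexus markers. The log2 fold change was 0.44 ± 0.21 (adjusted P = 0.684) in KO-Nut3 against KO-Veh and 0.77 ± 0.24 (adjusted P = 0.359) in KO-Nut3 against WT-Veh, the latter 0.41 when the choroid score was added. Over all Nutlin-3 libraries it was 0.43 ± 0.16 (adjusted P = 0.563), and 0.18 with that score.

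*Phlda3*, whose product keeps AKT from the membrane, was at 11.9, 13.9 and 14.5 CPM in WT-Veh, at 18.6, 16.8 and 17.2 in WT-Nut3, at 16.1, 14.7 and 15.8 in KO-Veh and at 29.7, 14.03 and 14.2 in KO-Nut3. WT-Nut3 was above WT-Veh in all 3 libraries, while in KO-Nut3 only RH6 was above the KO-Veh range. The log2 fold change was 0.38 ± 0.11 (95% interval 0.14 to 0.63, adjusted P = 0.998) in WT-Nut3 against WT-Veh. It was 0.31 ± 0.26 (adjusted P = 0.802) in KO-Nut3 against KO-Veh, where the 2 libraries other than RH6 were below all 3 KO-Veh libraries. Over all Nutlin-3 libraries it was 0.35 ± 0.15, and 0.15 without RH6. In RH6 the mean log2 CPM of 12 thalamus markers was 4.797, against 3.44 to 3.75 in the other libraries. Their most abundant gene, *Adarb1*, was at 253 CPM there against 207 to 237 in the others. *Slc17a6* was at 113 CPM against 8.42 to 22.2, and *Tcf7l2* at 32.7 against 4.75 to 7.33. No thalamus marker was at 0, and their part in the *Phlda3* value was not tested.

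*Eda2r*, the gene of a tumour necrosis factor family receptor, had 4 to 20 reads per library and was at 0.418, 0.525 and 0.618 CPM in WT-Veh, at 0.659, 0.745 and 1.07 in WT-Nut3, at 0.413, 0.226 and 1.08 in KO-Veh and at 1.05, 0.687 and 1.098 in KO-Nut3. WT-Nut3 was above WT-Veh throughout, but KO-Veh alone spanned nearly the whole range. The log2 fold change was 0.68 ± 0.32 (adjusted P = 0.685) over all Nutlin-3 libraries and 0.85 ± 0.38 (adjusted P = 0.539) in KO-Nut3 against WT-Veh, the latter 0.54 with the choroid score.

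*Apaf1*, the gene of the apoptosome scaffold, was at 25.7, 25.6 and 27.7 CPM in WT-Veh, at 23.2, 25.4 and 30.1 in WT-Nut3, at 25.9, 25.3 and 27.2 in KO-Veh and at 18.9, 22.1 and 24.9 in KO-Nut3. KO-Nut3 was below both vehicle groups in each library, with a log2 fold change of -0.25 ± 0.11 (adjusted P = 0.634) against KO-Veh and -0.26 ± 0.11 (adjusted P = 0.526) against WT-Veh. KO-Nut3 RH6, the library with the highest thalamus score, was the lowest, and without it these were -0.15 and -0.16. *Bbc3*, which encodes the BH3-only protein PUMA, was at 14.3, 11.7 and 10.6 CPM in WT-Veh, at 14.7, 10.8 and 10.2 in WT-Nut3, at 13.6, 9.02 and 10.1 in KO-Veh and at 8.71, 10.3 and 8.84 in KO-Nut3. KO-Nut3 was below WT-Veh in each library, with a log2 fold change of -0.39 ± 0.15 (adjusted P = 0.481), and -0.14 when the choroid score was added. *Pmaip1*, which encodes the BH3-only protein NOXA, had 17 to 39 reads per library and was at 1.02, 1.05 and 2.01 CPM in WT-Veh, at 1.17, 0.994 and 1.23 in WT-Nut3, at 1.65, 1.24 and 1.88 in KO-Veh and at 1.997, 1.95 and 1.37 in KO-Nut3. KO-Nut3 was above WT-Nut3 in each library, with a log2 fold change of 0.64 ± 0.27 (adjusted P = 0.928). The remaining genes of this group, the nuclease gene *Aen*, the death receptor genes *Fas* and *Tnfrsf10b*, *Ei24* and the PIDDosome gene *Pidd1*, had no unadjusted P under 0.05 in any comparison. *Ei24* was the least variable of the 35, at 75.3 to 83.4 CPM.

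None of the 6 genes of DNA repair and nucleotide supply passed in any comparison. In KO-Nut3 against KO-Veh their log2 fold changes ran from -0.08 to 0.12, with all 6 intervals within -0.5 to 0.5. None had an unadjusted P under 0.05 in any comparison. *Rps27l*, which encodes a ribosomal protein and is a direct p53 target, was at 6.93, 6.04 and 8.81 CPM in WT-Veh, at 6.898, 10.1 and 8.299 in WT-Nut3, at 8.05, 9.302 and 8.03 in KO-Veh and at 7.71, 8.76 and 11.2 in KO-Nut3. Its groups overlapped for both treatment comparisons, the whole range was 1.85-fold, and the log2 fold change was 0.17 ± 0.13 (-0.10 to 0.44) over all Nutlin-3 libraries. The lesion recognition genes *Xpc* and *Ddb2*, the bypass polymerase gene *Polk*, the excision nuclease gene *Ercc5* and the ribonucleotide reductase gene *Rrm2b* spread from 1.16-fold (*Ercc5*) to 1.34-fold (*Ddb2*) between the lowest and highest library.

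Among the 7 genes of metabolism and stress, *Ddit4* had the smallest P, for genotype. It was at 55.4, 61.9 and 65.4 CPM in WT-Veh, at 57.6, 66.2 and 53.5 in WT-Nut3, at 75.6, 70.5 and 66.5 in KO-Veh and at 67.8, 76.2 and 54.8 in KO-Nut3. KO-Veh was above WT-Veh in each library, while the Nutlin-3 groups overlapped. The log2 fold change was 0.22 ± 0.07 (95% interval 0.06 to 0.37, adjusted P = 0.6103) in KO-Veh against WT-Veh and 0.19 ± 0.08 (adjusted P = 0.521) in all KO against all WT. It was -0.10 ± 0.11 (-0.35 to 0.15) in KO-Nut3 against KO-Veh. *Sesn2*, the gene of a leucine sensor that restrains mTORC1, was at 21.7, 20.7 and 22.3 CPM in WT-Veh, at 21.5, 23.1 and 18.6 in WT-Nut3, at 23.3, 21.4 and 18.1 in KO-Veh and at 21.6, 23.4 and 17.4 in KO-Nut3. The groups overlapped throughout, with a log2 fold change of -0.01 ± 0.13 (-0.31 to 0.29) in KO-Nut3 against KO-Veh. *Sesn1*, the glycolysis regulator gene *Tigar*, the ferredoxin reductase gene *Fdxr*, the thiamine carrier gene *Slc19a2* and *Gdf15* had no unadjusted P under 0.05 in any comparison.

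The genotype comparisons called no target gene. In KO-Veh against WT-Veh 0 of 35 passed with edgeR (0.0177% of all genes) and 0 with DESeq2. Of the 35, 19 were higher (48.9% of all genes), with a median log2 fold change of 0.03. *Ddit4* and *Perp* were the 2 with an unadjusted P under 0.05 (7.2% of all genes), and 9 genes had groups that did not overlap (12.4% of all genes). Of those 9, *Aen*, *Phlda3*, *Fas*, *Tigar* and *Ddit4* were higher in the knockout and *Gadd45a*, *Ckap2*, *Perp* and *Xpc* lower.

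In KO-Nut3 against WT-Nut3 0 of 35 passed with edgeR (0.00443% of all genes) and 0 with DESeq2. Of the 35, 23 were higher (51.1% of all genes). *Pmaip1* was the 1 gene with an unadjusted P under 0.05 (4.87% of all genes) and the 1 whose groups did not overlap (10.7% of all genes). In all KO against all WT 0 passed with edgeR (0.00443% of all genes) and 0 with DESeq2. There 24 of 35 were higher (51.9% of all genes), and *Psrc1* and *Ddit4* were the 2 with an unadjusted P under 0.05 (8.16% of all genes).

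In KO-Nut3 against WT-Veh, where genotype and treatment both differ, 0 passed with edgeR (0.00443% of all genes) and *Perp* passed with DESeq2 (adjusted P = 0.0023), which called 222 of 22563 genes, although the edgeR value of *Perp* turned to -0.051 with the choroid score added. Of the 35, 22 were higher (52.4% of all genes). *Perp*, *Eda2r* and *Casp8*, higher, and *Bbc3* and *Apaf1*, lower, were the 5 with an unadjusted P under 0.05 (9.17% of all genes). The same 5 were those whose groups did not overlap, a number near the share of all genes (15%). The interaction of genotype and treatment called 0 with edgeR (0% of all genes) and 0 with DESeq2. Of its 35 values 18 were above 0 (51.3% of all genes), and *Ckap2* and *Perp* were the 2 with an unadjusted P under 0.05 (4.17% of all genes).

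**Figure D5:**
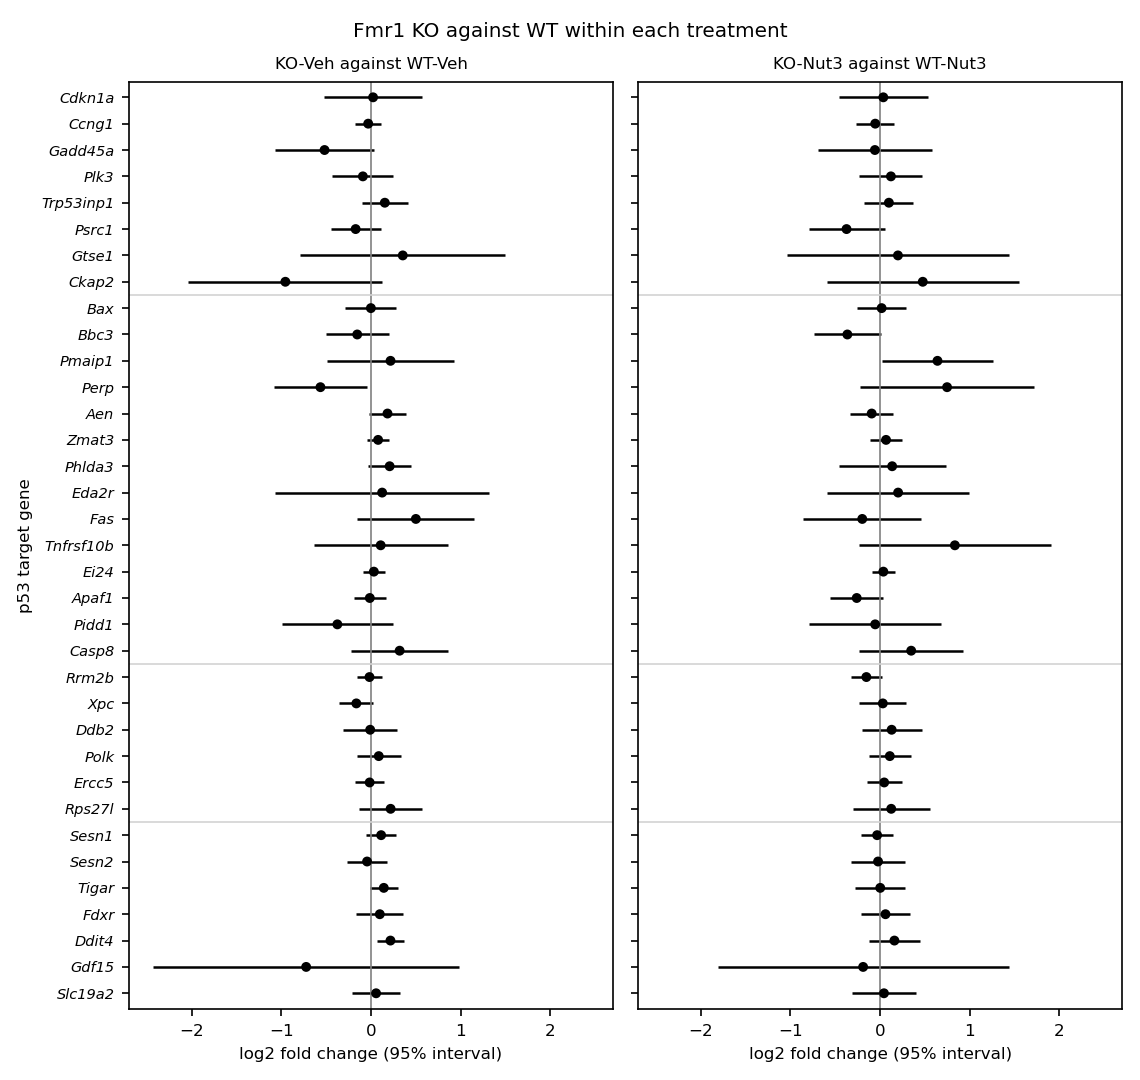
Log2 fold changes (points) with 95% intervals (lines) of the 35 p53 target genes for *Fmr1* KO against WT in vehicle-treated and in Nutlin-3-treated mice, 3 libraries against 3 in each. None of the 35 passed the adjusted threshold, and the points farthest from 0 are *Ckap2* at -0.96 with vehicle and *Tnfrsf10b* at 0.83 with Nutlin-3.

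The genes that control p53 gave no call in the treatment comparisons. Of 28 core regulators, 13 were higher and 15 lower in KO-Nut3 against KO-Veh (50.8% of all genes higher), with 0 at an unadjusted P under 0.05 (7.6% of all genes). In WT-Nut3 against WT-Veh 20 were higher (50.1% of all genes), again with 0 at an unadjusted P under 0.05 (3.17% of all genes). *Trp53*, the p53 gene itself, was at 24.8, 23.2 and 23.3 CPM in WT-Veh, at 25.2, 24.8 and 25.7 in WT-Nut3, at 25.6, 24.8 and 23.9 in KO-Veh and at 27.2, 27.5 and 25.5 in KO-Nut3. The 2 highest libraries were KO-Nut3, and the log2 fold change was 0.11 ± 0.08 (-0.07 to 0.29) against KO-Veh and 0.17 ± 0.08 (adjusted P = 0.591) against WT-Veh. *Mdm2* was at 52.4, 54.7 and 57.9 CPM in WT-Veh, at 55.2, 65.6 and 61.2 in WT-Nut3, at 62.6, 62.3 and 52.01 in KO-Veh and at 60.4, 60.3 and 62.2 in KO-Nut3. WT-Veh had the lowest group mean, and the log2 fold change was 0.04 ± 0.08 (-0.14 to 0.22) in KO-Nut3 against KO-Veh and 0.14 ± 0.07 (-0.02 to 0.31) in WT-Nut3 against WT-Veh. It was 0.15 ± 0.06 (adjusted P = 0.529) in KO-Nut3 against WT-Veh. *Mdm4* ranged from 128 to 149 CPM over the 12 libraries, the deacetylase gene *Hdac1* from 36.3 to 44.2 and the acetyltransferase gene *Ep300* from 101 to 115. *Mdm4*, *Hdac1* and *Ep300* had no unadjusted P under 0.05 in any comparison.

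A further list of 20 p53 targets gave 12 higher and 8 lower in KO-Nut3 against KO-Veh, where 50.8% of all genes were higher. Their median was 0.10 on the log2 scale, with none past the adjusted threshold (0.199% of all genes). The smallest P were those of *Thbs1*, the thrombospondin 1 gene (1.26 ± 0.21, adjusted P = 0.0563), the tetraspanin gene *Cd82* (0.66 ± 0.13, adjusted P = 0.102) and the epoxide hydrolase gene *Ephx1* (0.62 ± 0.13, adjusted P = 0.142). *Thbs1* was at 2.03, 3.47 and 24.7 CPM in WT-Veh, at 2.03, 4.77 and 2.24 in WT-Nut3, at 3.41, 2.199 and 2.22 in KO-Veh and at 6.66, 6.13 and 6.15 in KO-Nut3, with 1 wild-type vehicle library far above the rest. *Cd82* was at 14.2, 15.02 and 18.1 CPM in WT-Veh, at 17.4, 27.4 and 19.2 in WT-Nut3, at 17.8, 14.5 and 17.2 in KO-Veh and at 29.9, 22.2 and 26.4 in KO-Nut3. *Ephx1* was at 21.8, 24.95 and 26.1 CPM in WT-Veh, at 20.7, 37.2 and 22.8 in WT-Nut3, at 20.3, 19.6 and 25.9 in KO-Veh and at 32.4, 29.9 and 39.1 in KO-Nut3. For *Cd82* and *Ephx1* the 4 highest libraries were the 4 with choroid plexus markers, and the part of those markers in either value was not tested. Of 20 cell cycle genes that p53 and p21 repress, 8 were higher and 12 lower in the same comparison (50.8% of all genes higher), 0 at an unadjusted P under 0.05 (7.6% of all genes). Of their intervals, 4 lay within -0.5 to 0.5.

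Several p53 targets also answer to neuronal activity, glucocorticoids or the ATF4 stress pathway, so each member was compared across the 12 libraries with the mean log2 CPM of a list for each program. Immediate early genes, which follow neuronal activity, were lower for all 14 in KO-Nut3 against KO-Veh, where 50.8% of all genes were higher. Of the 14, 10 had an unadjusted P under 0.05 (7.6% of all genes) and 0 passed the adjusted threshold. Their mean log2 CPM was 4.87, 5.14 and 4.55 in KO-Nut3 and 5.18, 5.27 and 5.69 in KO-Veh. The KO-Nut3 values were within the WT-Veh range (4.39 to 5.51). The AP-1 gene *Junb* had the smallest P, at -0.50 ± 0.12 (adjusted P = 0.185). Summed markers of CA pyramidal neurons were also lower, at 869, 1230 and 1216 CPM in KO-Nut3 against 1302, 1317 and 1277 in KO-Veh. Their mean log2 CPM overlapped between these groups, and their part in the change was not tested. Glucocorticoid-responsive genes were higher for all 12 in KO-Veh against WT-Veh, 4 at an unadjusted P under 0.05 (7.2% of all genes) and 0 past the adjusted threshold. By mean log2 CPM of this list, WT-Veh RH2 (4.25) and RH5 (4.43) were below KO-Veh (4.72 to 4.95). WT-Veh RH15 (4.85) was within the KO-Veh range. The ATF4 list had 9 higher and 3 lower in KO-Nut3 against KO-Veh.

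Of 105 relations between a member and a list, 0 passed an adjusted P of 0.05 (permutation test, 100000 resamples, two-sided) and 14 had an unadjusted P under 0.05. The closest was *Trp53inp1* with the glucocorticoid list, with r = 0.83 (permutation P = 0.00094, adjusted P = 0.0987) and rho = 0.69 (permutation P = 0.0173, adjusted P = 0.259). Without WT-Veh RH2 and RH5, the libraries farthest from the median score, r was 0.79, and it was 0.78 among animals up to RH8 and 0.22 among those from RH9. *Sesn1* with the immediate early list had r = 0.67 (permutation P = 0.01796, adjusted P = 0.269) and rho = 0.84 (permutation P = 0.00101, adjusted P = 0.106). Without WT-Veh RH2 and KO-Nut3 RH13 its r was 0.92, and within the number blocks it was 0.51 and 0.66.

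As a description of the whole list, the mean log2 CPM of the 35 genes was 3.02, 3.13 and 3.21 in WT-Veh, 3.13, 3.28 and 3.05 in WT-Nut3, 3.12, 3.09 and 3.14 in KO-Veh and 3.25, 3.19 and 3.29 in KO-Nut3. The 3 KO-Nut3 libraries were above the 3 KO-Veh libraries on this scale, and the 3 highest libraries were KO-Nut3 RH13, WT-Nut3 RH9 and KO-Nut3 RH6. These are the 3 libraries with the highest choroid plexus scores, and the part of those markers in the mean was not tested. The mean of 34 genes without *Perp* was 3.07, 3.16 and 3.25 in WT-Veh, 3.17, 3.28 and 3.10 in WT-Nut3, 3.16, 3.15 and 3.19 in KO-Veh and 3.25, 3.21 and 3.29 in KO-Nut3, with KO-Nut3 again above KO-Veh by a smaller gap. Here KO-Nut3 RH13 and WT-Nut3 RH9 stayed the highest, and WT-Veh RH15 (3.254) and KO-Nut3 RH6 (3.249) were nearly equal. The mean log2 CPM gives sparse genes such as *Gdf15* the same weight as abundant ones. The summed level of the 35 genes, set mostly by abundant genes, ran from 714 to 780.5 CPM over the 12 libraries. Both extremes were WT-Veh libraries. The sum was 775.0, 774.9 and 747.4 CPM in KO-Veh and 761.8, 761.2 and 747.6 in KO-Nut3, so these groups overlapped.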

How the data were processed

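Hippocampal poly(A) RNA of 12 mice was sequenced. The authors mapped reads to mm10 with STAR and deposited raw counts per gene, without normalization. Counts over both strands were used, as the strands held near equal shares. Reads on stretches shared by overlapping or antisense genes therefore cannot be assigned to either gene. A table of the whole series with 12 sample columns was not used. Reads not assigned to a gene (21.2% to 22.6%, with unmapped, multimapping and ambiguous reads among them) stayed out of library sizes.

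Groups came from the sample labels. Genes with more than 20 counts in total were tested two-sided with edgeR 4.0.16 (quasi-likelihood, TMM, R 4.3.3), pairs of groups on their own 6 libraries, the interaction and main effects on 12, with Benjamini-Hochberg adjustment over all 22592 genes at 0.05. The SE is the log2 fold change over the square root of F. Levels are CPM, with a prior count of 1 for log2 values, and per-kb levels use the exons of GENCODE M21. The script was tested on simulated data. Alternatives were DESeq2 1.42.0 (as a test and for size factors only), filterByExpr, a minimum of 1 count, a joint fit of 12 libraries, robust dispersion, blocks of animal numbers, the choroid score as a covariate, each library left out, and a prior count of 5 for correlations. The members and lists were chosen with earlier results of these data known. Values per library are given for 10 chosen members and each member with an unadjusted P under 0.05 in any comparison. Of other lists, *Trp53*, *Mdm2*, *Mdm4*, *Hdac1*, *Ep300*, called genes and at most 3 genes of smallest P per list and comparison are named.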

Additional observations from a re-analysis of the deposited data

How the results depend on the processing

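No paired analysis was possible because each mouse was in a single group and the sample labels used here name no litters. The blocks used instead (animal numbers up to RH8 or from RH9) pair no mice. The number of members past the threshold changed through *Perp* alone. In KO-Nut3 against KO-Veh it was 0 in the joint fit of 12 libraries, with blocks of animal numbers and with the choroid score added, 0 to 1 with 1 library left out, and 1 in the other 5 alternatives. In KO-Nut3 against WT-Veh it was 1 with DESeq2 and with a minimum of 1 count (adjusted P = 0.00218), and 0 to 1 with 1 library left out (1 without KO-Nut3 RH8, adjusted P = 0.0278). With a minimum of 1 count it was also 1 in the interaction and in all Nutlin-3 against all vehicle. With the choroid score added, the *Perp* log2 fold change changed sign to -0.051 in KO-Nut3 against WT-Veh and to -0.0063 in all Nutlin-3 against all vehicle. With 1 library left out it ranged from 1.65 to 2.01 in KO-Nut3 against KO-Veh. *Fmr1* left the threshold in KO-Nut3 against WT-Nut3 without WT-Nut3 RH14 (-1.24, adjusted P = 0.0991). The cause was not tested. Over all genes, calls in KO-Nut3 against KO-Veh numbered 45, against 245 with DESeq2, 544 with a minimum of 1 count, 20 with blocks and 0 in the joint fit or with the choroid score. With DESeq2 they numbered 22 against 4 in KO-Veh against WT-Veh, 222 against 1 in KO-Nut3 against WT-Veh, 7 against 1 in KO-Nut3 against WT-Nut3, 79 against 0 for all Nutlin-3, 43 against 1 for all KO and 1 against 0 in the interaction. With a minimum of 1 count these were 272, 416, 38, 539, 239 and 291, and 249 against 0 in WT-Nut3 against WT-Veh. Blocks gave 21 in KO-Veh against WT-Veh, 11 in WT-Nut3 against WT-Veh, 3 in KO-Nut3 against WT-Veh, 3 for all Nutlin-3 and 10 for all KO. Robust dispersion gave 2 in KO-Nut3 against WT-Veh and 6 for all KO. The joint fit gave 1 in KO-Veh against WT-Veh and 2 in KO-Nut3 against WT-Veh. The choroid score gave 1 in KO-Veh against WT-Veh, 2 in KO-Nut3 against WT-Nut3 and 1 in the interaction. No relation with a list passed with a prior count of 5. Members with fewer than 100 reads per library had 95% intervals too wide, in KO-Nut3 against KO-Veh, to show a change of the size seen for *Phlda3* in wild type. The limit was not confined to them, as the interval of *Cdkn1a* in that comparison also reached past this size.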
